A study of Caenorhabditis elegans with 2 samples.

Results

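The 41 genes described here encode the proteasome and the cytosolic chaperonin of Caenorhabditis elegans. They were taken by symbol from the WBcel235 annotation as all nuclear protein-coding genes named pas, pbs, rpn, rpt or cct with a number, and make up 41 of 19973 genes. Binding near their starts was read from a ChIP-seq experiment, in which DNA bound to a protein is precipitated with an antibody and sequenced. The protein was MAB-5, a Hox transcription factor of the posterior body, fused to eGFP. The material was whole mixed-stage embryos of strain OP27, of pooled sexes, which carry the mutation unc-119(ed3) and the integrated transgene wgIs27. There were 2 biological replicates in 1 group, so no comparison between groups was possible. The sources used here do not give the promoter of the transgene, the cells that express it or the number of reads. The labels name mab-5 as the antibody and describe the precipitation as one against the eGFP fusion.

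The proteasome degrades proteins that carry ubiquitin chains. Its barrel-shaped core particle is built of alpha subunits (pas genes), which gate the entrance, and beta subunits (pbs genes), some of which cut peptide bonds. A regulatory particle on either end holds a ring of ATPases (rpt genes), which unfold the substrate, and non-ATPase subunits (rpn genes), which bind and remove ubiquitin. The chaperonin (cct genes) is a double ring in which newly made actin, tubulin and other proteins fold. Most of these subunits are needed in most cells, and in worms the transcription factor SKN-1 is known to raise proteasome genes when the proteasome is impaired, while the heat shock factor HSF-1 is known to act on chaperonin genes.

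The sequences under 6 of the peaks are examples of strong summits, of summits that were strong in 1 replicate, and of a summit found in replicate 1 alone. They are not the 6 strongest summits of the members. Each runs 100 bases to either side of the summit, on the strand of the named gene, from the WBcel235 genome (the build of the ce11 files), and lies outside the exons of protein-coding genes. Capitals mark matches, on either strand, to TGATNNAT (bound by Hox and PBC proteins together), GAANNTTC (the core of a heat shock factor site), TATCAT or TGTCAT (a SKN-1 core) and GCGCG. The last was added after the sequences had been seen. TGATNNAT can overlap the reverse complement of TATCAT.
rpn-3, thresholded list, chrIII:8447066-8447266, plus strand: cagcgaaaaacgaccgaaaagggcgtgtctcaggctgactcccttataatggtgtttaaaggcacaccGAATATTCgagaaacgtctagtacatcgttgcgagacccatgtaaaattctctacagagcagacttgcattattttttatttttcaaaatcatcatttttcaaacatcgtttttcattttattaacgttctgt
rpt-2, thresholded list, chrV:6017699-6017899, minus strand: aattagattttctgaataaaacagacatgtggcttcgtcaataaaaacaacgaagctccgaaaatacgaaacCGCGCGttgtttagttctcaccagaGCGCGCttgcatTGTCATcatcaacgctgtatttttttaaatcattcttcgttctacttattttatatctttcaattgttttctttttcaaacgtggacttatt
cct-1, thresholded list, chrII:8185115-8185315, plus strand: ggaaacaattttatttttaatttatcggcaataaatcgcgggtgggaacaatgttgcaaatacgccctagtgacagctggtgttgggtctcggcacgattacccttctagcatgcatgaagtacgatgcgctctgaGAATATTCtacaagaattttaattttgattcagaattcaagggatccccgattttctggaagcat
cct-8, pooled list, chrIV:1094221-1094421, minus strand: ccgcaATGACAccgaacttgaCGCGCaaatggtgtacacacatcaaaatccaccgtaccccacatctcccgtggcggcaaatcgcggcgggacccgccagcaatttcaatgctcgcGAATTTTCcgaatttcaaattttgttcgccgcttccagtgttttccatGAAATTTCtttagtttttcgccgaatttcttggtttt
pas-6, pooled list, chrV:5584454-5584654, minus strand: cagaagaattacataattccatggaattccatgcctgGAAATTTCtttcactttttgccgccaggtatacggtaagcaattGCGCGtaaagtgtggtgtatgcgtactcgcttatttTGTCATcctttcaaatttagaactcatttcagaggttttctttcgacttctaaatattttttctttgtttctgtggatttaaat
rpn-9, replicate 1 list, chrII:11239117-11239317, minus strand: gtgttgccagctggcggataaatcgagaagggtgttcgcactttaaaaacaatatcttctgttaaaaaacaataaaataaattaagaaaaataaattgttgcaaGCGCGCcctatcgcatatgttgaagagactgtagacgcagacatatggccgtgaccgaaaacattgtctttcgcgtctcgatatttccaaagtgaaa

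The windows of rpn-3 and cct-1 hold the same 8 letters, GAATATTC, at positions 69 and 137 of the printed sequence, counted from its 5′ end. No share of these letters at other summits is given. The cct-8 window holds 2 matches to GAANNTTC and the pas-6 window 1. The printed windows include all 4 that hold GAANNTTC among the 29 members' strongest pooled summits, so they do not show how common it is. The pooled summits of pbs-5, pbs-1 and rpn-7 were stronger than those of cct-8 and pas-6, but their windows, not printed, hold no GAANNTTC. The rpt-2, cct-8 and pas-6 windows each hold 1 SKN-1 core. None of the 6 windows holds the composite Hox site. Annotated non-coding RNA genes overlap the rpt-2 window (F29G9.10) and the left end of the rpn-3 window (C30C11.14).

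Strong MAB-5 peaks lay at a minority of these genes, 1 in each of 4 of the 5 subunit classes. The authors deposited a list of 502 peaks thresholded by the irreproducible discovery rate (IDR), which measures how well the replicates' peak ranks match, and relaxed lists of 30000 peaks for each replicate and for both pooled, which include background. A start window covered 2000 bp before and 500 bp after the gene start. Of the 41 members, 4 had a summit of the thresholded list in this window (9.76%, exact 95% interval 2.72 to 23.1%), against 2.48% of all 19973 genes. These were rpn-3, rpt-2, cct-1 and pbs-5. No alpha subunit gene (0 of 7) was among them. The interval, here and below, covers counting error only, as if genes were independent draws. It holds no variation between the 2 replicates, and no test was made of the list against other genes. When each summit was given only to the nearest gene start, 2 members remained, rpn-3 and rpt-2, against 1.47% of all genes.

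rpn-3, which encodes a subunit of the regulatory particle's lid, had the strongest summit of all members. The signal value, the authors' own measure of enrichment on a scale the sources do not state, was 22.8 in replicate 1, 72.0 in replicate 2 and 94.6 after pooling. These values ranked 120, 31 and 34 in lists of 30000, so the site stood near the top in both replicates. The pooled peak (III, 8447098 to 8447217, ce11) had its summit in intergenic sequence (outside protein-coding genes, here and below) 187 bp upstream of rpn-3. It lay 257 bp upstream of hsp-110, the gene of a large heat shock protein that acts with Hsp70, which is transcribed in the other direction from a start 443 bp away.

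rpt-2, which encodes a subunit of the ATPase ring, had signal values of 17.5 in replicate 1, 38.8 in replicate 2 and a pooled value of 55.6. The ranks were 249, 119 and 124. The 2 replicates placed the summit within 3 bp of each other, 127 and 130 bp upstream of the start (pooled peak V, 6017629 to 6017968). The summit lay outside protein-coding genes but inside the non-coding RNA gene F29G9.10. The summit also lay in the windows of aps-1, a divergent neighbour for a clathrin adaptor subunit, at 171 bp upstream, and of picc-1. Of these starts, that of rpt-2 was the nearest.

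cct-1, a chaperonin subunit gene, had signal values of 17.6 in replicate 1, 34.2 in replicate 2 and a pooled value of 54.0, with ranks of 245, 173 and 136. Its summit (pooled peak II, 8185045 to 8185384, intergenic) lay 228 bp upstream of cct-1 and 192 bp upstream of the divergent Dishevelled gene mig-5, which was nearer. pbs-5, the gene of the beta subunit with chymotrypsin-like activity, had 19.1 in replicate 1, 31.1 in replicate 2 and a pooled value of 53.6. Its ranks were 194, 225 and 139, but the position differed from that of the other 3 members with a thresholded summit. The summit lay 1163 bp upstream of pbs-5 (pooled peak I, 14721470 to 14721809), in an intron of the neighbour K05C4.2, whose own start was nearer. K05C4.2 lies on the same strand and ends 110 bp before pbs-5 begins.

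**Figure D1:**
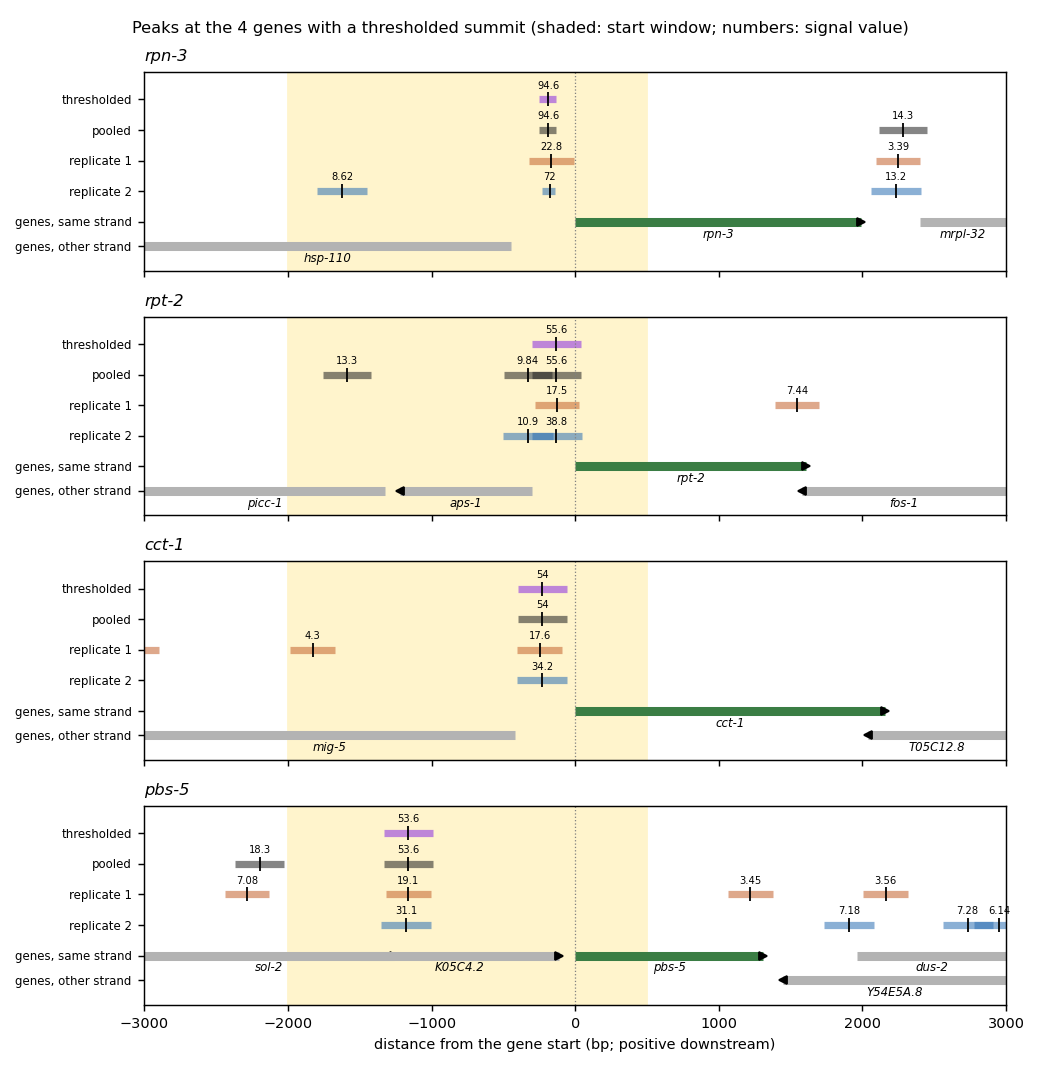
Peaks around the 4 genes with a thresholded summit. The horizontal axis is the distance from the gene start in bp, bars are peak intervals in each list, ticks are summits with their signal values, and arrowheads mark the 3′ ends of genes (green, the named gene). At rpn-3, rpt-2 and cct-1 the strongest summit of each list falls between the gene and its divergent neighbour, and at pbs-5 it falls in K05C4.2; weaker summits of the relaxed lists lie elsewhere.

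In the relaxed lists, members were also frequent among the higher ranks. Within the 2000 strongest summits, 14 members had one in the pooled list (34.1%, exact 95% interval 20.1 to 50.6%), against 8.7% of all genes. These include the 4 members with a thresholded summit. The other 10 made up 24.4% of all 41 members. Genes within rank 2000 but without a thresholded summit made up 6.22% of all genes. Replicate 1 gave 11 members (26.8%, exact 95% interval 14.2 to 42.9%) against 7.91% of all genes, and replicate 2 gave 13 (31.7%, exact 95% interval 18.08 to 48.09%) against 7.92% of all genes. At any rank, 29 members had a pooled summit (70.7% against 54.3% of all genes), 34 had one in replicate 1 (82.9% against 58%) and 30 in replicate 2 (73.2% against 55.7%). With the nearest gene start only, 8 members had a pooled summit within rank 2000 (19.5%, against 5.61% of all genes). At any rank 16 members then had one (39.0%), and the share of all genes, 42.8%, was higher.

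**Figure D2:**
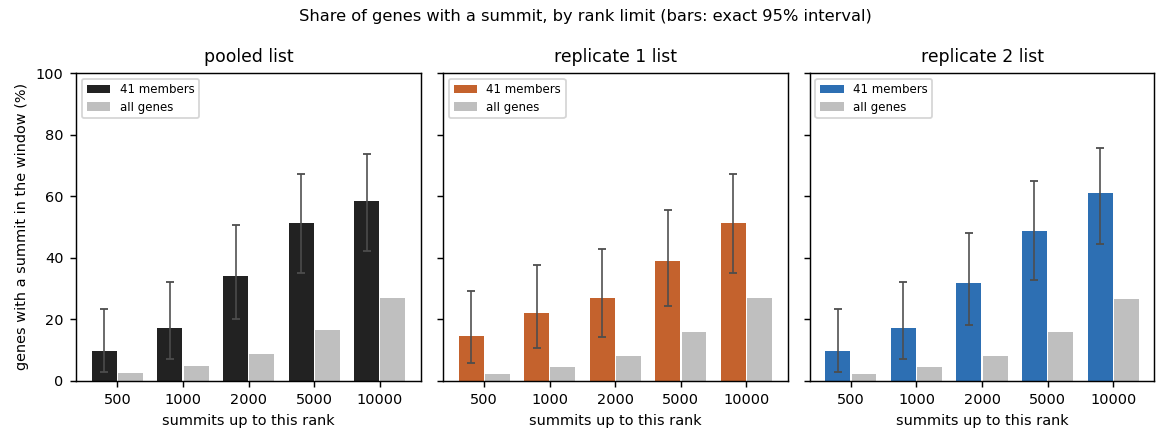
Share of genes with a summit in the start window among the strongest 500 to 10000 summits of each relaxed list, with members in colour (exact 95% intervals) and all genes in grey. Within rank 5000 the share was 51.2% of members in the pooled list, 39.0% in replicate 1 and 48.8% in replicate 2, against 16.6, 15.9 and 15.8% of all genes.

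The core particle's beta subunits and the chaperonin held most of these pooled summits for their size. Of 7 beta subunit genes, 5 had a pooled summit within rank 2000, of 8 chaperonin genes 3, of 13 rpn genes 4, of 6 rpt genes 1 and of 7 alpha subunit genes 1. The share of all genes was 8.7%. The counts per replicate ordered the classes otherwise. Replicate 1 gave 2 beta, 1 chaperonin, 5 rpn, 2 rpt and 1 alpha gene, against 7.91% of all genes. Replicate 2 gave 4 beta, 4 chaperonin, 2 rpn, 1 rpt and 2 alpha genes, against 7.92% of all genes. Each class count of 1 is within 1 gene of what these shares give. The classes are small, with 6 to 13 genes, and no difference between them was tested.

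**Figure D3:**
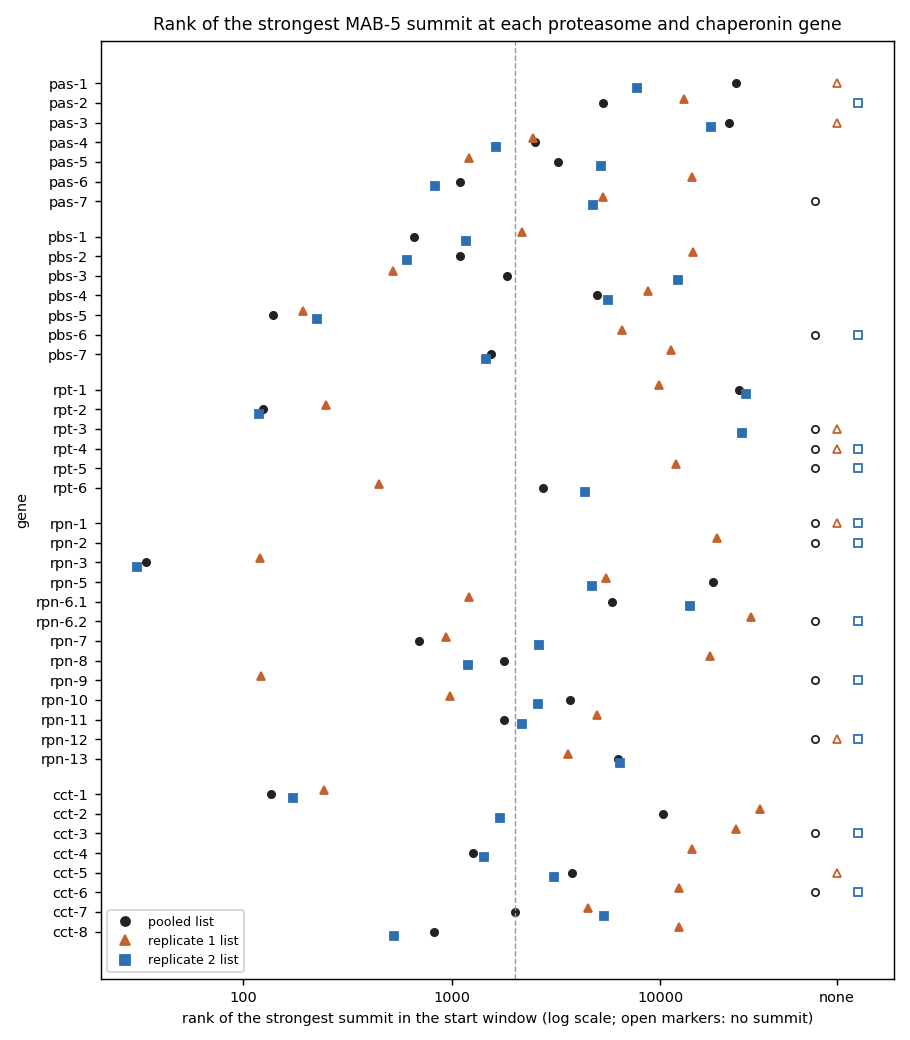
Rank of the strongest summit in the start window of each member (horizontal axis, log scale) in the pooled (circles), replicate 1 (triangles) and replicate 2 (squares) lists, with genes grouped by subunit class and open markers where the list had no summit. The dashed line marks rank 2000; rpn-3, rpt-2, cct-1 and pbs-5 lie left of it in all 3 lists, and for many other genes the markers of the replicates lie far apart.

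Among the beta subunit genes outside the thresholded list, pbs-1, which encodes a subunit with caspase-like activity, came closest. It had signal values of 9.47 in replicate 1 (rank 2173), 18.6 in replicate 2 (rank 1173) and a pooled value of 31.0 (rank 660), while the weakest listed peak had 34.3. Its pooled summit lay 223 bp upstream (IV, 1709798 to 1710137), nearer to pbs-1 than to its divergent neighbour K08D12.3. pbs-2, for the subunit with trypsin-like activity, had 5.07 in replicate 1 (rank 14323), 22.7 in replicate 2 (rank 613) and a pooled value of 26.0 (rank 1095). Its pooled summit lay 363 bp upstream, nearer to the start of the divergent translation factor gene eif-6. The 2 replicates thus gave pbs-2 very different standing.

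pbs-3 showed the opposite order, with 14.1 in replicate 1 (rank 524) and 9.10 in replicate 2 (rank 12086). Its pooled summit, with a signal value of 21.7 (rank 1837), lay 143 bp upstream in the 3′ UTR of ulp-2, a same-strand gene that ends 22 bp before pbs-3. pbs-7 had 5.63 in replicate 1 (rank 11265), 17.4 in replicate 2 (rank 1455) and a pooled value of 22.9 (rank 1549), with the pooled summit 123 bp upstream. The lowest pooled value among beta genes with a summit was 16.1 at pbs-4 (rank 4970, 760 bp upstream). pbs-6 had summits in replicate 1 alone, the stronger with a value of 6.85 (rank 6538).

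The alpha subunit genes had pooled signal values from 9.22 at pas-1 to 26.0 at pas-6. With genes that had no summit placed last, their median was 15.8, below the 22.9 of the beta genes and close to the 15.0 of the rpn genes. pas-6 had 5.09 in replicate 1 (rank 14229) and 20.7 in replicate 2 (rank 828). The pooled summit (rank 1097; V, 5584384 to 5584723) lay 211 bp upstream, in intergenic sequence, and replicate 2 placed its own 272 bp upstream. The strongest replicate 1 summit lay elsewhere, 874 bp upstream in a coding exon of CD4.11, and a weaker replicate 1 summit with a value of 4.0 (rank 22537) lay 34 bp from that of replicate 2. pas-4 and pas-5 were within rank 2000 in 1 replicate each. pas-4 had 9.16 in replicate 1 (rank 2460) and 16.8 in replicate 2 (rank 1634), 146 and 42 bp upstream. pas-5 had 11.1 in replicate 1 (rank 1205) and 12.2 in replicate 2 (rank 5201), at places 588 bp apart. A weaker replicate 2 summit at pas-5 (5.67, rank 29523) lay 56 bp from that of replicate 1. pas-1, pas-2, pas-3 and pas-7 had no summit within rank 2000 in any list. pas-7 had none at all in the pooled list, with 7.31 in replicate 1 and 12.5 in replicate 2 at places 1313 bp apart.

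In the ATPase ring, rpt-2 stood apart from the other 5 genes in rank. rpt-6 had 14.7 in replicate 1 (rank 450), 12.7 in replicate 2 (rank 4376) and a pooled value of 19.1 (rank 2752), with the pooled summit 278 bp upstream. rpt-1 had the lowest pooled value of all members with a summit, 9.04 (rank 23914), at 1842 bp upstream in a coding exon of mans-2. rpt-3 and rpt-5 had summits in 1 replicate each, with values of 6.41 (replicate 2) and 5.5 (replicate 1). rpt-4 had no summit in any relaxed list.

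The other subunits of the regulatory particle ranged from rpn-3 to genes without any summit. rpn-7, a lid subunit gene, had 12.0 in replicate 1 (rank 935), 14.7 in replicate 2 (rank 2617) and a pooled value of 30.3 (rank 694; IV, 9316020 to 9316359). The strongest summits of the 2 replicates lay 23 bp apart. The pooled summit lay 441 bp upstream of rpn-7 and in the 5′ UTR of the divergent gene F49C12.9. rpn-8 and rpn-11 form the pair that holds the ubiquitin-removing activity of the lid, with the active site in rpn-11. rpn-11 had 7.45 in replicate 1 (rank 4992), 15.6 in replicate 2 (rank 2159) and a pooled value of 21.9 (rank 1786), 111 bp upstream. rpn-8 had 4.64 in replicate 1 (rank 17316), 18.5 in replicate 2 (rank 1201) and a pooled value of 21.9 (rank 1773), at 368 bp upstream and nearer to the divergent gene mrps-6.

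rpn-9, another lid subunit gene, was the sharpest case of disagreement. In replicate 1 a peak (II, 11239062 to 11239371) reached a value of 22.8 and rank 121, with its summit 298 bp upstream, almost equal to that of rpn-3 in the same list. Replicate 2 had no summit in the window, and its nearest one lay 2791 bp from that of replicate 1. The nearest pooled summit lay 1991 bp away with a value of 8.02 (rank 29375). The rpn-9 site therefore rests on 1 library.

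The ubiquitin receptor genes rpn-10 and rpn-13 had modest summits. rpn-10 had 11.8 in replicate 1 (rank 979) and 14.8 in replicate 2 (rank 2586), with the pooled summit 1455 bp upstream and nearer to the starts of kin-3 and mrpl-9. rpn-13 had 8.2 in replicate 1 (rank 3601) and 11.4 in replicate 2 (rank 6420), at places 717 bp apart. rpn-6.1, a lid subunit whose higher level is known to raise proteasome activity in worms, had 11.1 in replicate 1 (rank 1207) at 326 bp upstream. In replicate 2 its strongest value was 8.60 (rank 13880) at 1892 bp upstream, and a weaker summit (5.72, rank 29162) lay 131 bp from that of replicate 1. The pooled summit (15.3, rank 5896) lay 321 bp upstream in an intron of F57B9.1, whose start was nearer. The related gene rpn-6.2 had 3.54 in replicate 1 (rank 27122) and no summit in the other lists. rpn-5 had the lowest pooled value of its class, 10.4 (rank 17800). The scaffold gene rpn-1 and the lid gene rpn-12 had no summit in any relaxed list, and the other scaffold gene, rpn-2, had one in replicate 1 alone (4.47, rank 18604).

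Among the chaperonin genes, cct-8 and cct-4 followed cct-1 in pooled rank, and both ranked far higher in replicate 2 than in replicate 1. cct-8 had 5.43 in replicate 1 (rank 12301), 23.6 in replicate 2 (rank 531) and a pooled value of 28.9 (rank 820; IV, 1094151 to 1094490), 401 bp upstream and nearer to the divergent gene Y55F3AR.2. cct-4 had 5.10 in replicate 1 (rank 14146), 17.5 in replicate 2 (rank 1429) and a pooled value of 24.6 (rank 1258). Its pooled summit lay 190 bp upstream, nearer to cct-4 than to the divergent gene nst-1, a nucleostemin gene. cct-2 had 3.29 in replicate 1 (rank 29919), near the end of the list, and 16.6 in replicate 2 (rank 1709) at a place 1101 bp away. Its pooled value of 12.8 was the lowest of the chaperonin genes with a summit.

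cct-7 lay just beyond rank 2000 in the pooled list, with 7.69 in replicate 1, 12.1 in replicate 2 and 21.1 (rank 2020) pooled. cct-5 had 14.05 in replicate 2 (rank 3099) and no summit in replicate 1. cct-3 and cct-6 had the reverse, with 3.93 and 5.42 in replicate 1 and no summit in replicate 2. Subunits of 1 ring thus spanned the range from a thresholded peak to a lone background-level summit.

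Across all members the replicates differed in which genes they ranked high. Both replicates had a summit in the window for 26 members (63.4%, against 37.9% of all genes), 8 members had one in replicate 1 alone (19.5% against 20.1%), 4 in replicate 2 alone (9.76% against 17.8%) and 3 in neither (7.32% against 24.2%). Within rank 2000, 20 members had a summit in at least 1 replicate (48.8%, against 12.6% of all genes) and 4 in both (9.76%, against 3.23% of all genes), and these 4 were those of the thresholded list. In 7 members the summit was beyond rank 10000 in replicate 1 and within rank 2000 in replicate 2 (17.1%, against 1.62% of all genes), and in 2, pbs-3 and rpn-6.1, the reverse held (4.88%, against 1.40% of all genes). Of the 26 members, 10 had their strongest summits within 100 bp of each other in the 2 replicates (38.5%, against 24.3% of 7569 genes). Signal values were higher in replicate 2, with a median ratio of 1.87 over these members and 1.70 over all genes with a summit in both, so values were compared within a list only.

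**Figure D4:**
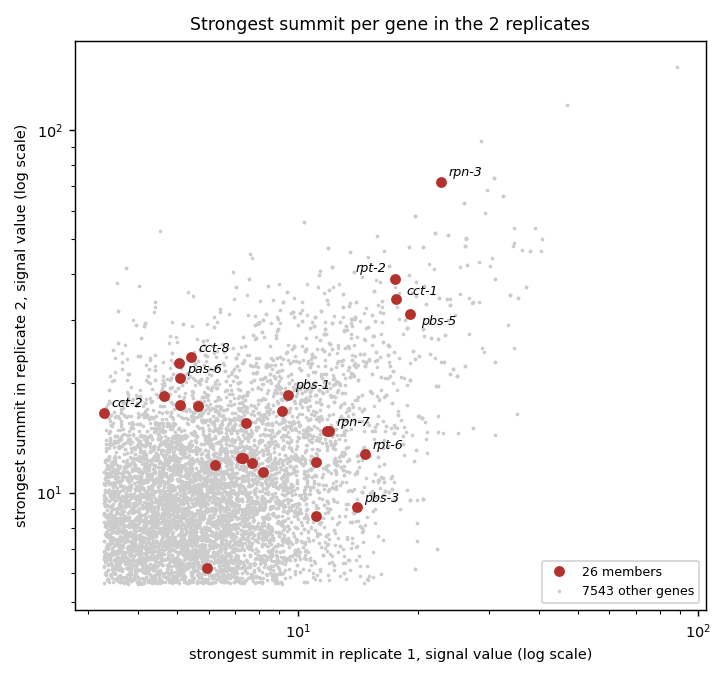
Signal value of the strongest summit in the start window in replicate 1 (horizontal) and replicate 2 (vertical), both on log scales, for 26 members (red) and the other genes (grey) with a summit in both lists. rpn-3, rpt-2, cct-1 and pbs-5 are high on both axes, while cct-8, pas-6 and cct-2 are high in replicate 2 and low in replicate 1.

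The median pooled signal value of the 29 members with a summit was 21.1, against 12.9 over 10854 genes. With genes that had no summit placed last, the median over all 41 members was 16.1, against 8.65 over all 19973 genes. In replicate 1 these medians were 5.94 against 3.87, and in replicate 2 they were 12.2 against 6.32. The members' medians were thus above those of all genes in each list, and no test was made of this.

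Most of the members' strongest pooled summits lay in the 500 bp before the gene start. The strongest pooled summit was at a median of -321 bp (negative values are upstream) over 29 members and -570.5 bp over 10854 genes. The medians depended on the window, at -228 bp against -248 bp with 1000 bp upstream and -577 bp against -1865 bp with 5000 bp. Within 500 bp upstream of the start lay 17 of the 29 (58.6%), against 32.2% of all genes with a pooled summit. In replicate 1 it was 67.6% against 29.6%, and in replicate 2 63.3% against 30.7%. The strongest pooled summits of the members were intergenic in 18 cases (62.1%, against 62.0% of all genes with a pooled summit), intronic in 4, in coding exons in 5, and in a 5′ UTR and a 3′ UTR in 1 case each. Only protein-coding genes were used for these labels, so the intergenic cases include the rpt-2 summit inside a non-coding RNA gene.

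**Figure D5:**
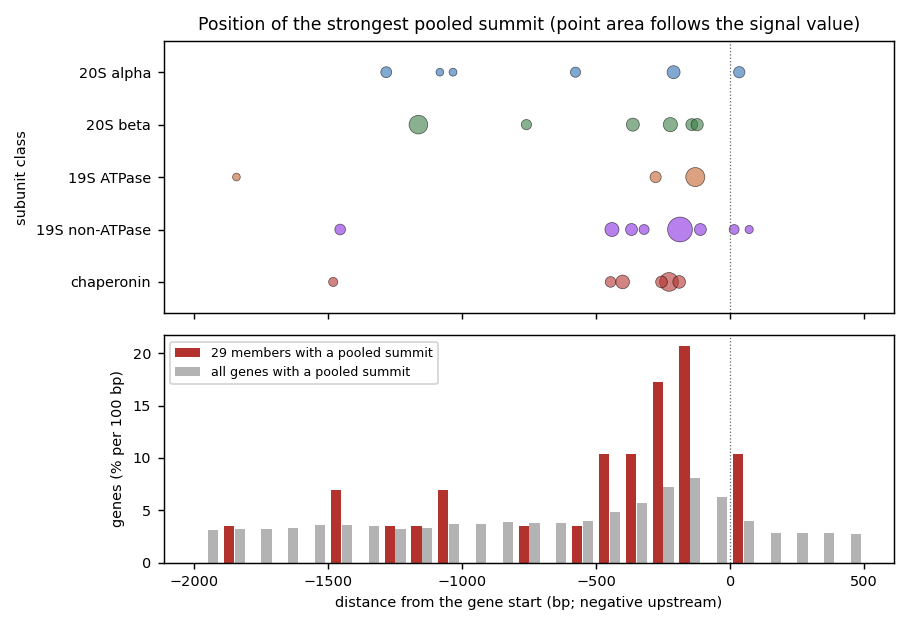
Above, position of the strongest pooled summit of each member relative to the gene start by subunit class, with point areas that follow the signal value. Below, the share of members (red) and of all genes (grey) with a pooled summit per 100 bp; the 2 fullest bins of the members, from 300 to 100 bp upstream, hold 17.2 and 20.7%, against 7.24 and 8.06% of all genes.

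The members are arranged along the genome in a way that bears on how their summits are assigned. For 29 of 41 (70.7%), the next gene upstream lies on the other strand within 2000 bp, so that both share 1 upstream region, against 25.0% of all genes. Of the 29 members with a pooled summit, 24 shared the strongest one with the start window of another gene (82.8%, against 40.3% of all genes with a pooled summit). For 14 of them (48.3%) their own start was the nearest, against 72.5% of all genes. A summit between 2 divergent starts cannot be given to 1 gene from these files. Among genes with such a divergent neighbour, 11 of 29 members (37.9%) had a pooled summit within rank 2000, against 15.1% of 4992 genes, with 24.1% against 12.5% in replicate 1 and 41.4% against 12.4% in replicate 2. Among the other genes, 3 of 12 members (25.0%) had one, against 6.57% of 14981, with 33.3% against 6.39% in replicate 1. In replicate 2 it was 1 of 12 (8.33%), near the 6.41% of those genes.

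A further 8 members (19.5%, against 17.7% of all genes) begin within 500 bp of the end of a same-strand neighbour, the layout of worm operons, in which several genes share 1 upstream promoter. These files do not annotate operons. No member lies on X, which carries 13.7% of all genes, and set against autosomal genes alone the pooled shares within rank 2000 were 34.1% of members and 9.05% of 17242 genes.

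The composite Hox site was not frequent at these genes. TGATNNAT occurred within 100 bp of the strongest pooled summit in 2 of 29 members (6.90%), pas-3 and pbs-4, against 15.5% of 10854 genes, and in 0 of the 14 members within rank 2000, against 17.1% of 1738 genes. In the 300 bp promoters (250 bp before to 50 bp from the start) it occurred in 8 of 41 members (19.5%), against 23.6% of all genes. GAANNTTC occurred at 4 of the 14 summits within rank 2000 (28.6%, against 11.9% of 1738), namely rpn-3, cct-1, cct-8 and pas-6, as in the sequences above, but at 0 of the other 15 members' summits, and in 24.4% of members' promoters, against 18.5% of all promoters. In windows of the same length centred 500 bp to the left of those 14 summits it occurred in 3 (21.4%, against 14.2% of 1738). The SKN-1 core occurred at 9 of the 29 summits (31.0%, against 19.4% of 10854 genes) and at 6 of the 14 (42.9%, against 16.7% of 1738 genes). It occurred in 2 of the 14 shifted windows (14.3%, against 19.8%) and in 18 of 41 promoters (43.9%, against 32.3% of all genes). A match is a description of the letters and was not tested.

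Genes that work with these complexes were described from 4 lists. In the ubiquitin and proteasome regulation list, 1 of 16 genes had a thresholded summit. This was cdc-48.1, the gene of an ATPase that extracts ubiquitin-tagged proteins, with 35.4 in replicate 1 (rank 35), 34.5 in replicate 2 (rank 167) and 69.2 pooled (rank 71), 196 bp upstream. The SKN-1 gene itself had 13.9 in the pooled list (rank 8000). In the tubulin and actin list, whose products fold in the chaperonin, 1 of 10 genes, tba-2, had a thresholded summit (40.0, rank 312, 157 bp upstream). Its strongest summit in replicate 1 was at -142 bp (19.05, rank 196), while that in replicate 2 lay 1884 bp upstream (22.7, rank 613) and was the summit described at pbs-2. None of 6 prefoldin genes, which deliver substrates to the chaperonin, and none of 6 genes of the COP9 signalosome, a complex built like the lid, had one. The share over all genes was 2.48%. Within pooled rank 2000 the counts were 2 of 16 for regulation, 3 of 10 for tubulin and actin, 1 of 6 for prefoldin and 1 of 6 for the signalosome, against 8.7% of all genes. The counts of 1 and 2 are within 1 gene of what that share gives.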

How the data were processed

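The authors deposited peak lists with a signal value per peak, used here as a score; the sources used here do not state its scale. Per the file descriptions, there is 1 relaxed list for each replicate and 1 made from both, as input for IDR, and 1 list thresholded by IDR. No source used here names the peak caller or the aligner. The lists in build ce10 were not used, nor was the control library. The depth in reads is unknown, and no error was estimated for single signal values.

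The ce11 lists were joined to the gene models of Ensembl release 115 (WBcel235), with RefSeq symbols matched by locus for 99.9% of genes and for 41 of 41 members. Summits were the peak start plus the deposited offset. The strongest summit in a gene's window, from 2000 bp upstream to 500 bp downstream of its start, stood for the gene. Ranks are by signal value within a list. Shares have exact (Clopper-Pearson) 95% intervals. No test was made, since the design has 1 group. The members, lists and motifs were chosen with earlier results of these data known. Genes were named where they had a thresholded summit, a rank of 2000 or better in a relaxed list, the highest or lowest pooled signal value of their class, or no summit. Others were described by values where a class was gone through in full. csn-7 was not found among the symbols. Window assignment was tested on simulated data. Alternatives were other windows, gene starts, assignments and lists. The work was done with pandas 2.3.3, matplotlib 3.10.9, scipy 1.17.1, numpy 2.4.6 and Python 3.11.15.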

Additional observations from a re-analysis of the deposited data

How the results depend on the processing

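Of 29 alternative values, 22 stayed within 1.5 times the count reported, or, for medians, within 1 SD of the 2 replicates' own medians. For the median distance, that SD was made from the same 2 replicate values (-339 and -312 bp) that are counted among the 22. Those 2 therefore say little about stability. For the median signal value, the SD (5.31) came from replicate medians on scales other than that of the pooled list. Staying within it therefore says little either. With the nearest gene start only, the members with a thresholded summit numbered 2 (from 4), those with a pooled summit 16 (from 29) and those within rank 2000 numbered 8 (from 14), since a summit in several windows then counts for 1 gene. The median pooled distance was -228 bp with windows of 1000 bp and -577 bp with windows of 5000 bp, a change that the window's length itself allows. Without 1 replicate, thresholded summits (as many of the strongest peaks of the other replicate) were found at 4 to 6 members, against 2.27% (without replicate 1) and 2.25% (without replicate 2) of all genes, relaxed summits at 30 to 34 and summits within rank 2000 at 11 to 13. The median distance ran from -339 to -312 bp, and the median signal value from 7.26 to 14.8, on each replicate's own scale; leaving a replicate out of this median was added after seeing the data. The 2 members gained without replicate 2 were rpn-9 and rpt-6. The stronger part of the thresholded list still gave 4 members, against 1.10% of all genes. No paired analysis was possible because there is 1 group. Peak lists hold no value where no peak was called, and the control library was not analysed here.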

Other observations

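Letters rich in alternating G and C were common at the stronger summits. GCGCG, chosen after the printed sequences had been seen, occurred within 100 bp of the strongest pooled summit in 6 of 14 members within rank 2000 (42.9%), against 35.7% of all 1738 genes within that rank. In windows of the same length centred 500 bp to the left of those summits it occurred in 2 of 14 members (14.3%) and 8.63% of the 1738 genes. Over all genes with a pooled summit of any rank it occurred at 14.1% of summits. The members' share was thus near that of other genes of the same rank. The GC content at the strongest pooled summit had a median of 35.8% over 29 members and 33.3% over 10854 genes, with 40.3 and 34.8% in the flank.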
